A study of Rattus norvegicus with 25 samples.

Results

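The comparison set all 20 injured libraries of the study against its 5 uninjured ones, out of 25 libraries of male Sprague-Dawley rat hippocampus from adults of 6 to 7 weeks. Controlled cortical impact (CCI), a piston blow to the exposed cortex used as a model of traumatic brain injury, was the feature that the injured groups shared. The groups were Vehicle-CCI, TD-CCI (thymus dosage), TCF-CCI (thymus cytosolic factor), TNF-CCI (thymus nuclear factor, not the cytokine of that abbreviation) and Vehicle-sham, each of 5 libraries. Members were chosen by label alone. The labels of TCF-CCI name the injury in the source name and leave it out of the title. No sham group received a supplement, so over the 3 supplement groups injury and supplement cannot be told apart; Vehicle-CCI is the injured group without one. The sources used here do not give the dose, the time after injury, the side of the brain or whether each library came from its own animal, so p-values measure the spread between libraries, which may be partly technical.

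A cortical blow damages tissue directly and is followed by a slower reaction of glia. Microglia, the resident phagocytes of the brain, bind antibody, complement and cell debris through surface receptors, signal through adaptors with tyrosine motifs, and digest what they take up in lysosomes. Astrocytes enlarge and lay down matrix. Hippocampal pyramidal and granule neurons depend on calcineurin, kinases and scaffold proteins at the postsynaptic side, and are known to be vulnerable to such a blow. RNA from whole hippocampus mixes all these cells, and fewer cells of a type and less RNA per cell cannot be told apart.

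Libraries held 27.3 to 44.9 M counted reads. Mitochondrial rRNA, which a poly(A) protocol is meant to leave out, took 6.73 ± 2.27% of the counts of the 20 CCI libraries and 11.6 ± 9.62% of those of the 5 sham libraries (SD). The difference of -4.88 percentage points had an exact two-sided permutation p of 0.0410, or 0.0821 after adjustment over 4 library measures, and was -1.37 points without Vehicle-sham 2 and -3.46 points without Vehicle-sham 3. The TMM scaling factor was 1.04 ± 0.0517 in CCI libraries and 0.878 ± 0.155 in sham libraries (SD). Its permutation p was 0.00184 (0.00738 adjusted), and 0.00922 without Vehicle-sham 2. Library totals and numbers of detected genes had adjusted permutation p-values of 0.366 and 0.954. Vehicle-sham 2 had the highest mitochondrial rRNA share of all 25 libraries, 25.6%, and the lowest TMM scaling factor, 0.645. Vehicle-sham 3 lay between it and the other sham libraries, at 17.3% and 0.805. Hippocampal subfield markers Prox1, Wfs1, Fibcd1 and C1ql2 were present in all 25 libraries.

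The mean of the 4 CCI groups differed from Vehicle-sham in 1248 of 21064 tested genes, or 5.92%, at a Benjamini-Hochberg adjusted p of 0.05 in edgeR's quasi-likelihood test. Of these, 472 were higher (2.24% of tested genes) and 776 lower (3.68%), with median log2 fold changes of 1.15 and -0.65, against 0.01 over all tested genes. With limma voom and library quality weights 638 of 1297 called genes were higher, a more even split. Of these 1297 genes 713 were also among the 1248 edgeR calls, 379 higher and 334 lower. The number of calls followed single libraries. It was 14 (0.066% of tested genes) without Vehicle-sham 2, 671 without Vehicle-sham 3, 761 without Vehicle-sham 4 and 2007 without Vehicle-sham 1. Among the CCI libraries, leaving out Vehicle-CCI 4 gave 2117 calls and leaving out TNF-CCI 2 gave 1964, while leaving out Vehicle-CCI 1, TD-CCI 1, TD-CCI 3, TCF-CCI 1, TCF-CCI 3 or TNF-CCI 5 gave 653, 734, 697, 784, 634 and 747 calls in that order.

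Fold changes of the higher genes moved little when Vehicle-sham 2 was left out, and those of the lower genes moved a lot. All 472 higher genes kept their sign, with a median of 1.13, and 0 of them moved towards 0 by more than 1.5 times. Of the 776 lower genes 765 kept their sign, the median was -0.37, and 506 moved towards 0 by more than 1.5 times. Leaving out a low sham library can raise the sham mean only slightly, while leaving out a high library can lower it without limit. The 295 higher genes with a log2 fold change of 1 or more could thus hardly move by more than 1.5 times. The contrast between these counts is therefore partly fixed by arithmetic, and does not show that the higher calls were sturdier. Vehicle-sham 2 was the highest of all 25 libraries in 674 of the 776 lower genes and the lowest in 222 of the 472 higher genes. Without it, limma voom with quality weights called 388 genes higher (1.83% of 21228 tested) and 230 lower (1.08%), of which 250 and 133 were among the edgeR calls. Without it edgeR called at most 1 higher and at most 1 lower gene of any gene list described below. The fold change without Vehicle-sham 2 is given beside that from all libraries for most genes below; the part of the library's quality in the calls was not tested.

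**Figure D1:**
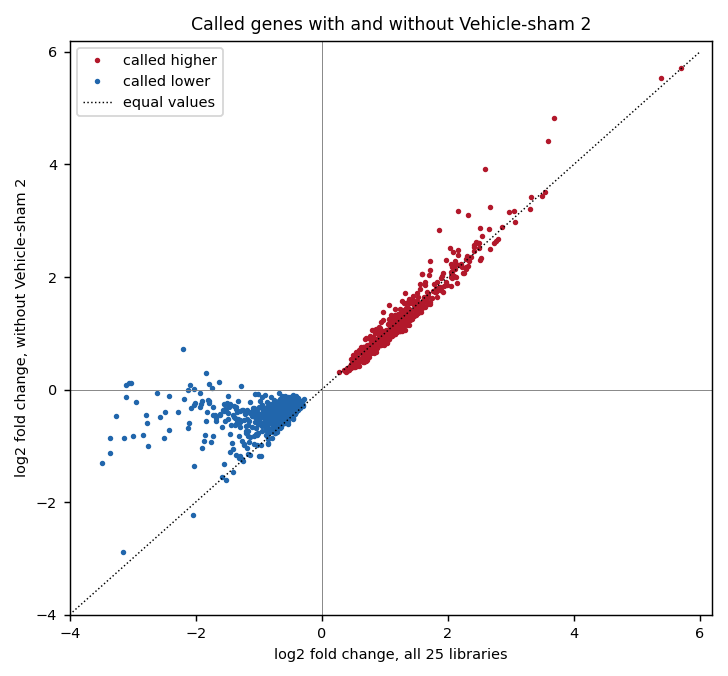
Log2 fold change of each called gene with all 25 libraries (x axis) and without Vehicle-sham 2 (y axis), the mean of the 4 CCI groups over Vehicle-sham; red points were called higher and blue points lower, and the dotted line marks equal values. Red points lie along the line, with medians of 1.15 and 1.13, and most blue points lie above it, with medians of -0.65 and -0.37.

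Receptors and signalling proteins of phagocytes were higher after CCI. Of 25 tested genes of the list of Fc receptors and phagocyte signalling, 15 were called higher and 0 lower, all 25 had a log2 fold change above 0, as did 51.2% of all tested genes, and the median was 1.04 (1.12 without Vehicle-sham 2). The called members were Fcgr2b, Ncf1, Tyrobp, Inpp5d, Irf8, Ptpn6, Rac2, Fcer1g, Ptprc, Ncf4, Dock2, Vav1, Plcg2, Cyba and Lyn, and without Vehicle-sham 2 edgeR called 0 members and voom 13. Of 23 phagocytic microglia genes 11 were called higher, with a median of 1.16 (1.28 without Vehicle-sham 2, where edgeR called 1 and voom 9). Of 11 homeostatic microglia genes 4 were called higher, among them Csf1r, Aif1 and Cx3cr1, with a median of 0.50 (0.62 without Vehicle-sham 2, where edgeR called 0 and voom 5).

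Ncf1 encodes the organising subunit of the phagocyte NADPH oxidase (mRatBN7.2, chromosome 12, 22485382 to 22494647). Its level ran from 9.67 CPM (read counts scaled to the TMM-adjusted total of the library) in Vehicle-CCI 4 through a median of 28.6 to 99.5 CPM in TNF-CCI 1 over the 20 CCI libraries, against 8.67, 6.6, 9.85, 6.26 and 11 CPM in Vehicle-sham 1 to 5. On the log2 scale the fold change was 2.23 ± 0.48 (SE; edgeR adjusted p = 0.0222; 2.18 without Vehicle-sham 2). It exceeded every sham library in 18 of 20 CCI libraries, and the exceptions were Vehicle-CCI 4 and TCF-CCI 5, so the groups overlapped through these alone.

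Fcgr2b, the inhibitory receptor for immunoglobulin G (chromosome 13, 83191253 to 83207776), ran from 14.0 CPM in TCF-CCI 2 through a median of 32.9 to 79.1 CPM in TNF-CCI 1, against 8.11, 8.94, 9.58, 15.9 and 12.1 CPM in Vehicle-sham 1 to 5. In edgeR the log2 fold change was 1.59 ± 0.33 (SE; edgeR adjusted p = 0.0222; 1.56 without Vehicle-sham 2). The groups overlapped through Vehicle-CCI 4, TCF-CCI 2 and TCF-CCI 5. Inpp5d, a lipid phosphatase that acts downstream of such inhibitory receptors, rose by 1.02 ± 0.23 on the log2 scale (0.87 without Vehicle-sham 2).

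Lilrb4, an inhibitory immunoglobulin-like receptor of myeloid cells (chromosome 1, 69805020 to 69810628), ran from 0.0667 CPM in Vehicle-CCI 4 through a median of 4.45 to 37.4 CPM in TNF-CCI 2, against 0.331, 0.114, 0.0752, 0.0978 and 0.0295 CPM in Vehicle-sham 1 to 5. All sham libraries were thus near the limit of detection, and again Vehicle-CCI 4 and TCF-CCI 5 were the CCI libraries within the sham range. At 5.71 ± 1.22 (SE; edgeR adjusted p = 0.0222) its log2 fold change was among the largest, and it was 5.71 without Vehicle-sham 2. Voom without that library gave an adjusted p of 0.126. Further lectin-type receptors had large fold changes as well. Clec12a, an inhibitory C-type lectin of myeloid cells, rose by 2.97 ± 0.60 (3.16 without Vehicle-sham 2) and Clec7a, a receptor for fungal glucans that marks phagocytic microglia, by 3.59 ± 0.82 on the log2 scale (4.42 without that library). Kcnn4, a calcium-activated potassium channel of microglia and blood cells, rose by 3.06 ± 0.68 (3.18 without it).

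Csf1r, the receptor that microglia need to survive (chromosome 18, 54546673 to 54590418), ran from 50.8 CPM in TCF-CCI 2 through a median of 97.1 to 192 CPM in TNF-CCI 1, against 39.0, 21.8, 34.9, 35.6 and 63.6 CPM in Vehicle-sham 1 to 5. Over sham, the log2 fold change was 1.40 ± 0.30 (SE; edgeR adjusted p = 0.0222; 1.28 without Vehicle-sham 2). Vehicle-CCI 3, Vehicle-CCI 4, TCF-CCI 2 and TCF-CCI 5 fell inside the sham range, whose upper end was Vehicle-sham 5.

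Promoters of called genes were read for a motif that PU.1, a factor of microglia and other myeloid cells, is known to bind, searched as GAGGAAGT on both strands in the 250 bases before the start. It was present in 5.80% of 345 promoters of genes called higher, 1.44% of 556 of genes called lower, and 2.12% of 14684 of all tested genes. The cyclic AMP response element TGACGTCA, which reads the same on both strands and which CREB proteins of neurons are known to bind, was present in 0.290%, 3.42% and 2.39% of the same 3 sets. Among genes called higher these were 20 promoters with the PU.1 motif and 1 with the response element. By list, the PU.1 motif was in 2 of 15 promoters of Fc receptors and phagocyte signalling. It was in 1 of 26 promoters of lysosome genes and 0 of 17 of phagocytic microglia genes. Further motifs, named SRE and CLEAR, were searched too. Each was in 1 of 345 promoters of genes called higher, or 0.290%, against 0.116% and 0.368% of all tested genes in that order. SRE was in 0 of 16 promoters of cholesterol synthesis genes, and CLEAR in 0 of 26 of lysosome genes. These shares are a description, and a match is not a bound site. The sequences below are the 100 bases before the start from RefSeq on the GRCr8 build, each on the gene's own strand, with the motif in capitals. Samsn1, an adaptor of blood-forming cells (log2 fold change 1.30; chr11:28021945-28022044, minus strand), and Arhgap25, a signalling protein of phagocytes (0.83; chr4:121532294-121532393, minus strand), were chosen after their values were seen; Samsn1 holds the motif in both orientations. Pja2, called lower (-0.50), holds the PU.1 motif in these 100 bases too and is not shown. Neurod6 (-1.18; chr4:86180156-86180255, minus strand) is shown for the response element and is described further on.
Samsn1: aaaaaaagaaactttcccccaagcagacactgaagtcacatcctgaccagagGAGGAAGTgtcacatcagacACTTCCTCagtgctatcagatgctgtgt
Arhgap25: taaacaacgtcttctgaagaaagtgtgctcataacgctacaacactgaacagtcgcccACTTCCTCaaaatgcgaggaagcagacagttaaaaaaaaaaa
Neurod6: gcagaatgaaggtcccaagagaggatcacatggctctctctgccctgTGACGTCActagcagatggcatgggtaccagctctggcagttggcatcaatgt

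Lysosomal genes were higher after CCI as far as they were called. Of 34 tested lysosome genes 13 were called higher and 0 lower, with a median of 0.51 (0.40 without Vehicle-sham 2, where edgeR called 1 and voom 10). The called members included Laptm5, Galns, Lgmn, Npc2, Ctss, Ctsz, Ctsd, Ctsa, Grn, Gusb, Naglu and Ctsh. Cathepsins and legumain among them cut proteins, Galns, Gusb and Naglu act on sugar chains, and Npc2 carries cholesterol out of the lysosome.

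Npc2 (chromosome 6, 104397239 to 104418161) ran from 54.0 CPM in TCF-CCI 5 through a median of 109.9 to 194 CPM in Vehicle-CCI 1, against 46.7, 86.9, 44.5, 54.9 and 66.7 CPM in Vehicle-sham 1 to 5. The fitted log2 fold change was 0.90 ± 0.20 (SE; edgeR adjusted p = 0.0232). Here Vehicle-sham 2 was the highest of the sham libraries, and without it the fold change was 1.10 and remained called by edgeR. Lgmn, which encodes the asparaginyl endopeptidase legumain (chromosome 6, 121544048 to 121582495), ran from 54.0 CPM in TCF-CCI 2 through a median of 90.6 to 166 CPM in Vehicle-CCI 1, against 49.6, 55.8, 51.0, 50.2 and 53.7 CPM in Vehicle-sham 1 to 5. Its fitted log2 fold change was 0.82 ± 0.18 (SE; edgeR adjusted p = 0.0222; 0.87 without Vehicle-sham 2). The 5 sham libraries lay close together, and TCF-CCI 2 was the only CCI library not above them all.

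Unc93b1, which brings nucleic acid-sensing Toll-like receptors to the endosome (chromosome 1, 201167388 to 201178343), ran from 6.91 CPM in TCF-CCI 5 through a median of 16.4 to 37.9 CPM in TNF-CCI 1, against 6.15, 5.07, 6.95, 5.45 and 6.04 CPM in Vehicle-sham 1 to 5. Fitted over all libraries, the log2 fold change was 1.60 ± 0.32 (SE; edgeR adjusted p = 0.0222; 1.57 without Vehicle-sham 2), and every CCI library but TCF-CCI 5 exceeded every sham library. Of 25 tested genes of Toll-like receptors and the inflammasome 6 were called higher and 0 lower, with a median of 0.67 (0.66 without Vehicle-sham 2, where edgeR called 0 and voom 4). They were Tlr8, Tlr7 and Tlr9, which read nucleic acids in endosomes, Cd14, Nlrc4 and Pycard. Tlr8 rose by 2.07 ± 0.49 on the log2 scale (2.09 without Vehicle-sham 2).

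Complement and cytokine genes were higher as far as they were called, ligands and receptors included. Of 20 tested complement genes 6 were called higher (C3, Serping1, Itgb2, C2, C1qa and C1s) and 0 lower, with a median of 0.88 (0.92 without Vehicle-sham 2, where edgeR called 0 and voom 6). Itgb2, the shared chain of the complement receptors of phagocytes, rose by 1.97 ± 0.43 (1.91 without Vehicle-sham 2), and C2, a protease of the classical pathway, by 1.42 ± 0.32 (1.36 without Vehicle-sham 2). Of 26 cytokine and receptor genes 11 were called higher (Il1r1, Tgfb1, Tgfbr2, Socs3, Il10ra, Csf1, Tnfrsf1b, Tnfrsf1a, Osm, Il10rb and Osmr) and 0 lower, with a median of 0.70 (0.67 without Vehicle-sham 2, where edgeR called 0 and voom 6). None of the 9 tested MHC class II genes, which present antigen, was called. All 9 had a log2 fold change above 0, with a median of 0.94 (1.28 without Vehicle-sham 2), and Cd74, the invariant chain, stood at 1.80 ± 0.59 (SE; edgeR adjusted p = 0.0625; 1.69 without Vehicle-sham 2).

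Il1r1, the signalling receptor for interleukin-1 (chromosome 9, 42504917 to 42580958), ran from 5.15 CPM in TCF-CCI 5 through a median of 8.92 to 14.1 CPM in TD-CCI 1, against 5.46, 4.95, 4.96, 3.78 and 4.30 CPM in Vehicle-sham 1 to 5. Every CCI library but TCF-CCI 5 exceeded every sham library. At 0.91 ± 0.21 (SE; edgeR adjusted p = 0.0240) its log2 fold change was close to the 0.96 found without Vehicle-sham 2, and the mean was 8.86 ± 2.49 CPM over CCI libraries and 4.69 ± 0.654 CPM over sham libraries (SD, n = 20 and 5).

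Markers of blood cells overlapped between the groups when summed, and 3 single markers were called higher. Summed over 8 tested neutrophil and monocyte genes, of 13 listed, the level was 9.60 to 39.2 CPM in CCI libraries and 11.1 to 14.6 CPM in sham libraries, and 3 of the 8 had a log2 fold change above 0. Over 8 lymphocyte genes, of 17 listed, it was 6.34 to 35.9 CPM in CCI libraries and 4.55 to 10.6 CPM in sham libraries, and over 8 perivascular macrophage genes, of 10 listed, it was 12.3 to 51.9 CPM in CCI libraries and 12.6 to 21.6 CPM in sham libraries. Csf3r was the called member of the first list, Cd4 and Cd8a of the second, and the third had 0. Single genes carried much of the first and second sums in CCI libraries. CCI medians were 12.6 CPM for Csf3r and 18.9 CPM for the first sum, and 12.1 CPM for Cd4 and 15.6 CPM for the second. S100a8, an abundant neutrophil gene, was at 0.0560 to 2.02 CPM in CCI libraries and 0.0290 to 3.07 CPM in sham libraries. Cd3e, which defines T cells, was at 0 to 2.07 CPM in CCI libraries and 0.939 to 3.89 CPM in sham libraries. Cd4, which helper T cells carry and rat macrophages and microglia carry too, ran from 4.25 CPM in TCF-CCI 5 through a median of 12.1 to 30.8 CPM in Vehicle-CCI 2, against 4.27, 2.56, 1.80, 3.23 and 5.16 CPM in Vehicle-sham 1 to 5, and was above every sham library in 18 of 20 CCI libraries. Cd8a, a chain of the killer T cell coreceptor, was low throughout, at 0.0334 to 1.21 CPM in CCI libraries and 0 to 0.165 CPM in sham libraries, and was above every sham library in 16 CCI libraries. Csf3r, the receptor for granulocyte colony-stimulating factor, was at 4.90 to 30.7 CPM in CCI libraries and 3.30 to 9.13 CPM in sham libraries, and was above every sham library in 17.

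Without Vehicle-sham 2 the log2 fold changes of these 3 genes were 2.00 for Cd4, 2.31 for Cd8a and 1.08 for Csf3r, against 2.05 ± 0.44, 2.50 ± 0.69 and 1.21 ± 0.34 (SE) with all libraries, and none was then called by edgeR. The call of Cd8a was also lost without Vehicle-CCI 1, TD-CCI 1, TD-CCI 3, TCF-CCI 1, TCF-CCI 3, TNF-CCI 5, Vehicle-sham 3, Vehicle-sham 4 or Vehicle-sham 5 (2.17 to 2.85), and that of Csf3r without Vehicle-CCI 1, TD-CCI 1, TD-CCI 3, TCF-CCI 3, TNF-CCI 5 or Vehicle-sham 4 (1.15 to 1.22). Many phagocyte genes above are also used by blood monocytes, and the part of such cells in them was not tested.

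**Figure D2:**
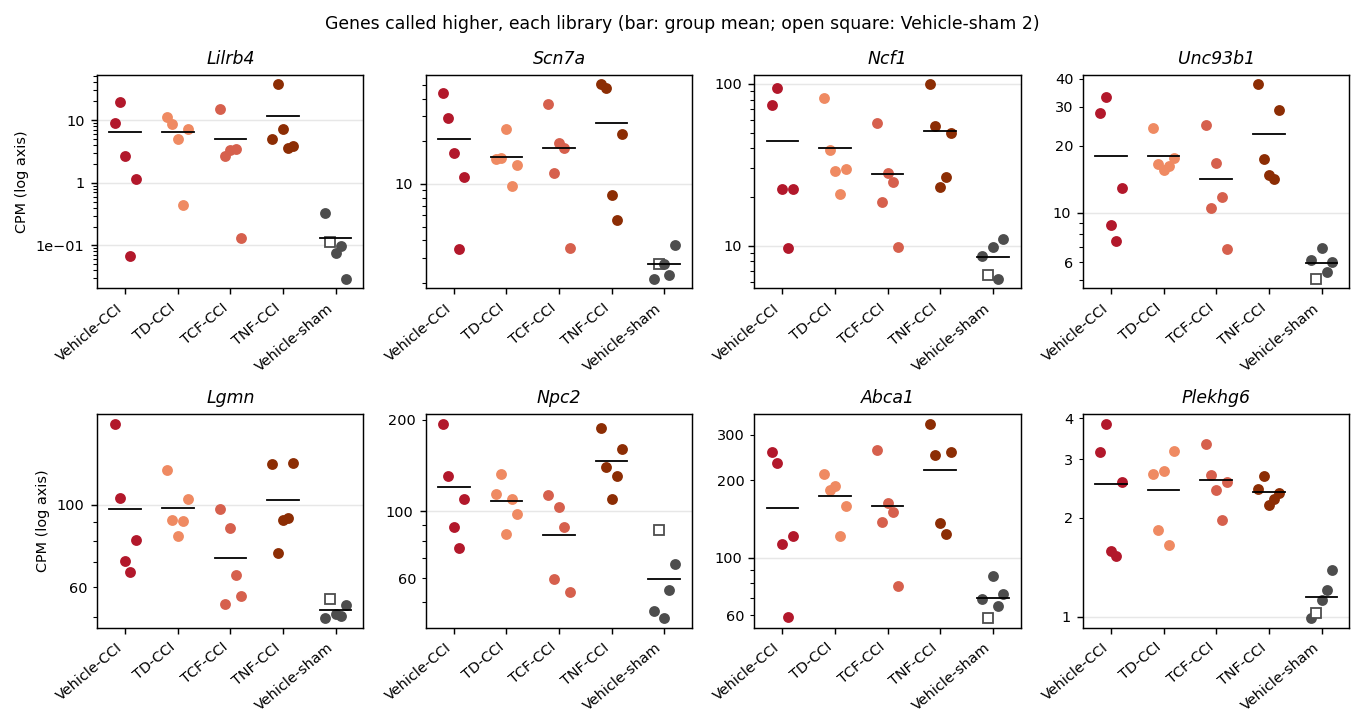
Level of 8 genes called higher in each library, in CPM on a log axis, in Vehicle-CCI, TD-CCI, TCF-CCI, TNF-CCI and Vehicle-sham from left to right; bars are group means (n = 5 each) and the open square is Vehicle-sham 2. Most CCI libraries lie above the sham points, with Vehicle-CCI 4 and TCF-CCI 5 among the lowest CCI points in Lilrb4, Scn7a, Ncf1 and Abca1.

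Astrocyte and matrix genes were called in part. Of 25 reactive astrocyte genes 8 were called higher (Vim, Cp, Gfap, Nes, Ggta1, Osmr, Cd44 and Lcn2) and 0 lower, with a median of 0.67 (0.97 without Vehicle-sham 2, where edgeR called 0 and voom 6), while 0 of 20 homeostatic astrocyte genes were called, with a median of 0.08. Of 24 metalloproteinases and inhibitors 5 were called higher and 1 lower, with a median of 0.38 (0.26 without Vehicle-sham 2, where edgeR called 0, and voom 3 higher and 1 lower). Mmp12, the macrophage elastase, rose by 5.39 ± 1.29 on the log2 scale (5.54 without Vehicle-sham 2), and Mmp2, a gelatinase, by 0.95 ± 0.22 (0.85 without Vehicle-sham 2). Mmp12 was at 0 to 0.0652 CPM in sham libraries, near the limit of detection. In CCI libraries its median was 1.06 CPM, with Vehicle-CCI 4, at 0, and TCF-CCI 5 within the sham range. Of 16 coagulation and fibrinolysis genes Plaur, F10, Pros1 and Plau were called higher and Tfpi, the inhibitor of the tissue factor pathway, lower; without Vehicle-sham 2 edgeR called 0 of the 16 and voom 3 higher.

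Tnc encodes tenascin-C, a matrix protein that reactive astrocytes make (chromosome 5, 77375851 to 77460712). Its level ran from 20.3 CPM in Vehicle-CCI 4 through a median of 34.8 to 63.2 CPM in TNF-CCI 1, against 20.6, 11.1, 20.9, 18.6 and 25.8 CPM in Vehicle-sham 1 to 5. The log2 fold change was 0.88 ± 0.21 (SE; edgeR adjusted p = 0.0246; 0.76 without Vehicle-sham 2), and Vehicle-CCI 3 and Vehicle-CCI 4 were within the sham range. Plaur, the receptor for urokinase at the cell surface (chromosome 1, 80053441 to 80068384), ran from 0.302 CPM in TD-CCI 4 through a median of 0.912 to 2.99 CPM in Vehicle-CCI 2, against 0.298, 0.285, 0.526, 0.130 and 0.118 CPM in Vehicle-sham 1 to 5. On the log2 scale the fold change was 2.18 ± 0.51 (SE; edgeR adjusted p = 0.0246; 2.22 without Vehicle-sham 2), at a level below 3 CPM throughout. TD-CCI 4 was the only CCI library within the sham range.

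Abca1, which exports cholesterol to lipoproteins (chromosome 5, 67678267 to 67801162), ran from 59.1 CPM in Vehicle-CCI 4 through a median of 162 to 331 CPM in TNF-CCI 1, against 69.1, 58.6, 85.2, 65.3 and 72.7 CPM in Vehicle-sham 1 to 5. In edgeR the log2 fold change was 1.32 ± 0.29 (SE; edgeR adjusted p = 0.0222; 1.28 without Vehicle-sham 2), with Vehicle-CCI 4 and TCF-CCI 5 inside the sham range. It was the only called gene of 18 of cholesterol and lipid export, whose median was 0.31 (0.30 without Vehicle-sham 2, where edgeR called 0 and voom 2).

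Scn7a, a sodium channel relative that senses salt in glia (chromosome 3, 51335841 to 51438308), ran from 3.47 CPM in Vehicle-CCI 4 through a median of 15.8 to 50.5 CPM in TNF-CCI 1, against 2.15, 2.73, 2.74, 2.28 and 3.71 CPM in Vehicle-sham 1 to 5. Over sham, the log2 fold change was 2.87 ± 0.57 (SE; edgeR adjusted p = 0.0222; 2.89 without Vehicle-sham 2). Card14, a scaffold of NF-κB signalling known from human skin (chromosome 10, 104572059 to 104601606), ran from 0.901 CPM in Vehicle-CCI 4 through a median of 8.60 to 32.3 CPM in TNF-CCI 1, against 0.926, 0.683, 1.24, 1.04 and 1.65 CPM in Vehicle-sham 1 to 5. The fitted log2 fold change was 3.31 ± 0.67 (SE; edgeR adjusted p = 0.0222; 3.22 without Vehicle-sham 2). Both genes exceeded every sham library in 18 CCI libraries, and Vehicle-CCI 4 and TCF-CCI 5 were again the exceptions.

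Sulf1, a secreted sulfatase that trims heparan sulfate, ran from 5.00 CPM in Vehicle-CCI 4 through a median of 12.1 to 18.1 CPM in TD-CCI 1, against 2.68, 4.21, 4.66, 2.28 and 4.57 CPM in Vehicle-sham 1 to 5. Its 20 CCI libraries all lay above every sham library, as did those of 0.0427% of tested genes, and its log2 fold change was 1.67 ± 0.27 (SE; edgeR adjusted p = 0.0067; 1.74 without Vehicle-sham 2, where edgeR still called it). Vat1, a membrane protein first found in synaptic vesicles, rose by 1.12 ± 0.22 (1.01 without Vehicle-sham 2), Togaram2 by 1.49 ± 0.30 (1.32) and Tmem176a, a membrane protein of immune cells, by 1.13 ± 0.23 (1.10).

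Plekhg6 (chromosome 4, 158163443 to 158182628) also lay above every sham library in all 20 CCI libraries. It ran from 1.53 CPM in Vehicle-CCI 4 through a median of 2.50 to 3.85 CPM in Vehicle-CCI 2, against 0.993, 1.02, 1.13, 1.21 and 1.39 CPM in Vehicle-sham 1 to 5. Its fitted log2 fold change was 1.11 ± 0.21 (SE; edgeR adjusted p = 0.0222; 1.10 without Vehicle-sham 2). Of 28 motile cilia genes 3 were called higher (Dnah12, Drc1 and Dnah11) and 1 lower (Dnajb13, at -0.74 ± 0.12 and -0.71 without Vehicle-sham 2, still called by edgeR), with a median of 0.56 (0.77 without Vehicle-sham 2). Catip, a protein of cilium formation, rose by 0.80 ± 0.16 on the log2 scale and by 0.91 without Vehicle-sham 2, where edgeR still called it. The summed level of 14 choroid plexus genes, an epithelium with cilia that borders the hippocampus, was 16.8 to 4170 CPM in CCI libraries and 29.1 to 424 CPM in sham libraries, and its part in the cilia genes was not tested.

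Several neuronal genes were lower after CCI. Neurod6, a transcription factor of pyramidal neurons (chromosome 4, 84846659 to 84849905), ran from 76.3 CPM in Vehicle-CCI 2 through a median of 103 to 184 CPM in Vehicle-CCI 4, against 158, 441, 191, 214 and 224 CPM in Vehicle-sham 1 to 5. Fitted over all libraries, the log2 fold change was -1.18 ± 0.19 (SE; edgeR adjusted p = 0.0067) and -0.83 without Vehicle-sham 2, the highest of the sham libraries. Vehicle-CCI 4 was the only CCI library inside the sham range.

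Ano3, a membrane protein of the anoctamin family found in neurons (chromosome 3, 97235671 to 97550090), ran from 78.7 CPM in TNF-CCI 3 through a median of 139 to 259.9 CPM in Vehicle-CCI 3, against 237, 364, 304, 308 and 292 CPM in Vehicle-sham 1 to 5. The log2 fold change was -1.07 ± 0.17 (SE; edgeR adjusted p = 0.0067), and -0.97 without Vehicle-sham 2, where edgeR still called it. Vehicle-CCI 3 alone among CCI libraries was not below every sham library. Enox2, an oxidase of the cell surface, fell by 0.84 ± 0.13 on the log2 scale, with -0.70 without Vehicle-sham 2, where edgeR still called it, and all 20 CCI libraries were below every sham library. Tuba8, an alpha-tubulin, had a log2 fold change of -0.80 ± 0.15 and of -0.58 without that library. Rgs13, a regulator of G protein signalling, fell by 2.02 ± 0.34 on the log2 scale, with a log2 fold change of -1.37 without Vehicle-sham 2. It was at 2.07 to 12.8 CPM in CCI libraries and 5.48 to 49.7 CPM in sham libraries, and 8 CCI libraries were within the sham range.

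Postsynaptic genes were lower in part. Of 26 genes of the postsynaptic density 8 were called lower (Ppp3r1, Ppp3ca, Homer1, Lrrtm2, Lrrtm4, Homer2, Dlgap1 and Camk2a) and Camk2g higher, with a median of -0.44 (-0.34 without Vehicle-sham 2, where edgeR called 0, and voom 3 lower and 1 higher). Calcineurin, a phosphatase that calcium switches on at synapses, appeared with both chains. Ppp3r1, its regulatory chain (chromosome 14, 91556743 to 91606230), ran from 344 CPM in Vehicle-CCI 2 through a median of 453 to 742 CPM in Vehicle-CCI 4, against 583, 1670.0, 910.1, 849 and 679 CPM in Vehicle-sham 1 to 5. On the log2 scale the fold change was -0.95 ± 0.17 (SE; edgeR adjusted p = 0.0182) with all libraries and -0.61 without Vehicle-sham 2, and Vehicle-CCI 3, Vehicle-CCI 4, TD-CCI 2 and TD-CCI 4 overlapped the sham range. Ppp3ca, a catalytic chain, had a log2 fold change of -1.11 ± 0.26, which was -0.46 without Vehicle-sham 2.

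Presynaptic and inhibitory genes had few calls. Of 25 genes of the synaptic vesicle and release 0 were called and 1 had a log2 fold change above 0, with a median of -0.25 with and without Vehicle-sham 2. Of 19 GABA synapse genes 3 were called lower, with a median of -0.17, and without Vehicle-sham 2 both edgeR and voom called 0 of them. Gabra5, a GABA receptor subunit abundant in hippocampus, had a log2 fold change of -0.82 ± 0.19, which was -0.45 without Vehicle-sham 2. Stxbp6, a protein that binds the SNARE fusion machinery (chromosome 6, 61920756 to 62157405), ran from 53.9 CPM in TNF-CCI 3 through a median of 76.8 to 123 CPM in Vehicle-CCI 4, against 111, 112, 121, 142 and 129 CPM in Vehicle-sham 1 to 5. It averaged 82.1 ± 19.4 CPM in CCI libraries and 123 ± 13.2 CPM in sham libraries (SD), a log2 fold change of -0.58 ± 0.15 (SE) with an edgeR adjusted p of 0.0327. In edgeR the log2 fold change was -0.59 without Vehicle-sham 2, -0.59 without Vehicle-sham 3 and -0.54 without Vehicle-sham 4, in each case with the edgeR call lost (adjusted p 0.0969, 0.0543 and 0.0629).

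Markers of hippocampal subfields were split. Of 9 tested CA1 pyramidal genes 0 were called and 0 had a log2 fold change above 0, with a median of -0.42 (-0.37 without Vehicle-sham 2). Of 14 CA2 and CA3 genes 4 were called lower, with a median of -0.10 (-0.13 without it), and of 13 dentate granule genes 2 were called lower, with a median of -0.23 (-0.40 without it). Without that library edgeR called 0 genes of the 3 lists, and voom called 1, 3 and 1 lower in that order. Bok, a BCL2 family member of CA3 neurons (chromosome 9, 94223493 to 94234476), ran from 27.9 CPM in TCF-CCI 1 through a median of 38.8 to 75.9 CPM in Vehicle-CCI 4, against 73.8, 83.4, 52.1, 96.1 and 65.3 CPM in Vehicle-sham 1 to 5. Over sham, the log2 fold change was -0.84 ± 0.17 (SE; edgeR adjusted p = 0.0222; -0.76 without Vehicle-sham 2). Vehicle-CCI 4, TD-CCI 2 and TNF-CCI 5 lay within the sham range, whose lower end was Vehicle-sham 3. Striatal and neocortical markers, of which 12 were tested, had 0 calls and a median of -0.08 (-0.018 without Vehicle-sham 2).

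Potassium channels and guidance receptors were called lower in part. Of 34 potassium channel genes 6 were called lower (Kcnh7, Kcnt2, Kcnd2, Kcnab1, Kcnc2 and Kcnmb4) and 0 higher, with a median of -0.17 (-0.20 without Vehicle-sham 2, where edgeR called 0 and voom 3 lower). Kcnh7, a slow channel of the ether-a-go-go family (chromosome 3, 47329338 to 47822122), ran from 40.0 CPM in Vehicle-CCI 2 through a median of 65.0 to 89.0 CPM in TD-CCI 4, against 85.1, 134, 94.4, 106 and 127 CPM in Vehicle-sham 1 to 5. The fitted log2 fold change was -0.73 ± 0.15 (SE; edgeR adjusted p = 0.0222; -0.62 without Vehicle-sham 2), and Vehicle-CCI 3, Vehicle-CCI 4 and TD-CCI 4 overlapped the sham range. Trpc5, a cation channel of pyramidal neurons, fell by 0.94 ± 0.18 (-0.74 without Vehicle-sham 2).

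Among 47 axon guidance genes 7 were called lower and 1 higher, with a median of -0.00 (-0.098 without Vehicle-sham 2, where edgeR called 0, and voom 4 lower and 1 higher). Epha6, a receptor for ephrin-A ligands (chromosome 11, 39757870 to 40708901), ran from 128 CPM in Vehicle-CCI 2 through a median of 221 to 284 CPM in Vehicle-CCI 3, against 314, 463, 285, 396 and 428 CPM in Vehicle-sham 1 to 5. All 20 CCI libraries lay below every sham library, as in 0.0380% of tested genes, although Vehicle-CCI 3 and Vehicle-sham 3 nearly touched. Its fitted log2 fold change was -0.79 ± 0.15 (SE; edgeR adjusted p = 0.0222; -0.68 without Vehicle-sham 2), and its relative Epha5 had -0.71 ± 0.15 (-0.64 without Vehicle-sham 2).

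Genes of cholesterol synthesis were lower in part while the exporter Abca1 was higher. The list of cholesterol synthesis holds the carrier Stard4 and the regulator Insig1 besides enzymes. Of its 24 tested genes 7 were called lower (Hmgcs1, Nsdhl, Idi1, Stard4, Fdps, Hsd17b7 and Insig1) and 0 higher. The median was -0.37 (-0.35 without Vehicle-sham 2, where edgeR called 0 and voom 3). Stard4, a carrier that moves sterols between membranes (chromosome 18, 24814683 to 24830024), ran from 11 CPM in Vehicle-CCI 2 through a median of 16.6 to 24.9 CPM in TD-CCI 4, against 22.6, 21.3, 20.6, 31.5 and 26.2 CPM in Vehicle-sham 1 to 5. Fitted over all libraries, the log2 fold change was -0.56 ± 0.14 (SE; edgeR adjusted p = 0.0287), and the edgeR call was lost without Vehicle-sham 2 (-0.58, adjusted p 0.0777) and without Vehicle-sham 4 (-0.47, adjusted p 0.0717). Only Vehicle-CCI 4 and TD-CCI 4 among CCI libraries were not below every sham library.

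Vps29, a subunit of the retromer that returns receptors from endosomes (chromosome 12, 34208911 to 34217977), ran from 78.0 CPM in TCF-CCI 3 through a median of 102 to 141 CPM in Vehicle-CCI 4, against 122, 284, 181, 168 and 164 CPM in Vehicle-sham 1 to 5. The log2 fold change was -0.83 ± 0.14 (SE; edgeR adjusted p = 0.0103; -0.59 without Vehicle-sham 2). Vehicle-CCI 3, Vehicle-CCI 4, TD-CCI 2 and TNF-CCI 2 were not below Vehicle-sham 1, the lowest sham library.

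**Figure D3:**
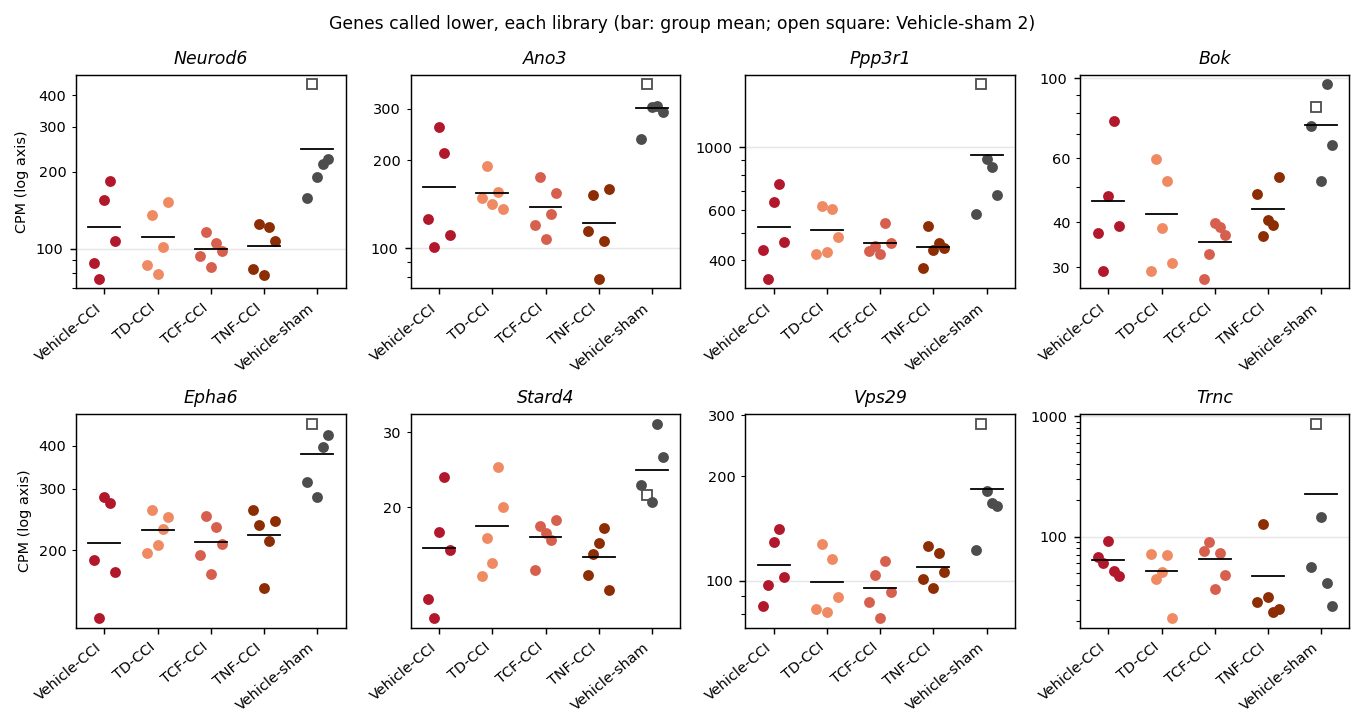
Level of 8 genes called lower in each library, in CPM on a log axis, in Vehicle-CCI, TD-CCI, TCF-CCI, TNF-CCI and Vehicle-sham from left to right; bars are group means (n = 5 each) and the open square is Vehicle-sham 2. The open square is at the top of its group in Neurod6, Ano3, Ppp3r1, Epha6, Vps29 and Trnc, and in Trnc it stands at 868 CPM with the other sham libraries at 26.3 to 144 CPM.

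Many lower calls leaned on Vehicle-sham 2, and 506 of the 776 lower genes moved towards 0 by more than 1.5 times without it. Examples follow. Trnc, the mitochondrial tRNA for cysteine (MT, 5185 to 5252), ran from 21.1 CPM in TD-CCI 5 through a median of 51.0 to 127 CPM in TNF-CCI 2, against 56.3, 868, 144, 41.5 and 26.3 CPM in Vehicle-sham 1 to 5. On the log2 scale the fold change was -2.01 ± 0.46 (SE; edgeR adjusted p = 0.0240), and -0.24 without Vehicle-sham 2. Only 3 CCI libraries were below every sham library. The 6 genes with a LOC identifier among those of largest fall had log2 fold changes of -3.50 to -1.93, which were -1.31 to -0.17 without Vehicle-sham 2. Cox7b, a subunit of cytochrome oxidase (X, 71083486 to 71089733), ran from 97.0 CPM in TNF-CCI 1 through a median of 191 to 386 CPM in Vehicle-CCI 3, against 141, 1370.0, 522, 262 and 123 CPM in Vehicle-sham 1 to 5. In edgeR the log2 fold change was -1.29 ± 0.34 (SE; edgeR adjusted p = 0.0325), -0.39 without Vehicle-sham 2 (adjusted p 0.583) and -1.26 without Vehicle-sham 3 (adjusted p 0.0584). The list of nuclear oxidative phosphorylation had 5 of 27 genes called lower and a median of -0.41, which was -0.23 without Vehicle-sham 2, where edgeR and voom called 0. Neurod1, a transcription factor of young granule neurons, had a log2 fold change of -1.44 ± 0.28 and of -0.64 without that library. Trib3, a pseudokinase induced by cell stress, rested on another library: its log2 fold change of -2.04 ± 0.59 was -2.22 without Vehicle-sham 2 and 0.94 without Vehicle-sham 5, which had 6.78 CPM with the other sham libraries at 0.0662 to 0.455 CPM. Red cell genes, with 1 of 8 called lower, had a median of -0.99, which was -0.15 without Vehicle-sham 2.

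Many lists had no called gene at all. They included 17 myelin, 12 oligodendrocyte precursor, 21 endothelial, 11 pericyte and smooth muscle, 22 cell cycle, 24 cytosolic ribosome, 17 circadian clock, 14 glucocorticoid response and 18 MHC class I genes. Over all tested genes 5.92% were called, and at that share such short lists hold few calls. A count of 0 thus does not show that a list was unchanged. Medians of these lists ran from -0.23 for the cytosolic ribosome to 0.40 for endothelium. Without Vehicle-sham 2 they ran from -0.14 for the glucocorticoid response to 0.43 for endothelium, and those of the cytosolic ribosome (-0.019), MHC class I (0.29), cell cycle (0.17), pericyte and smooth muscle (0.13) and circadian clock (-0.075) moved by more than 1.5 times. Voom without that library called 1 gene of MHC class I and 1 of pericyte and smooth muscle.

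**Figure D4:**
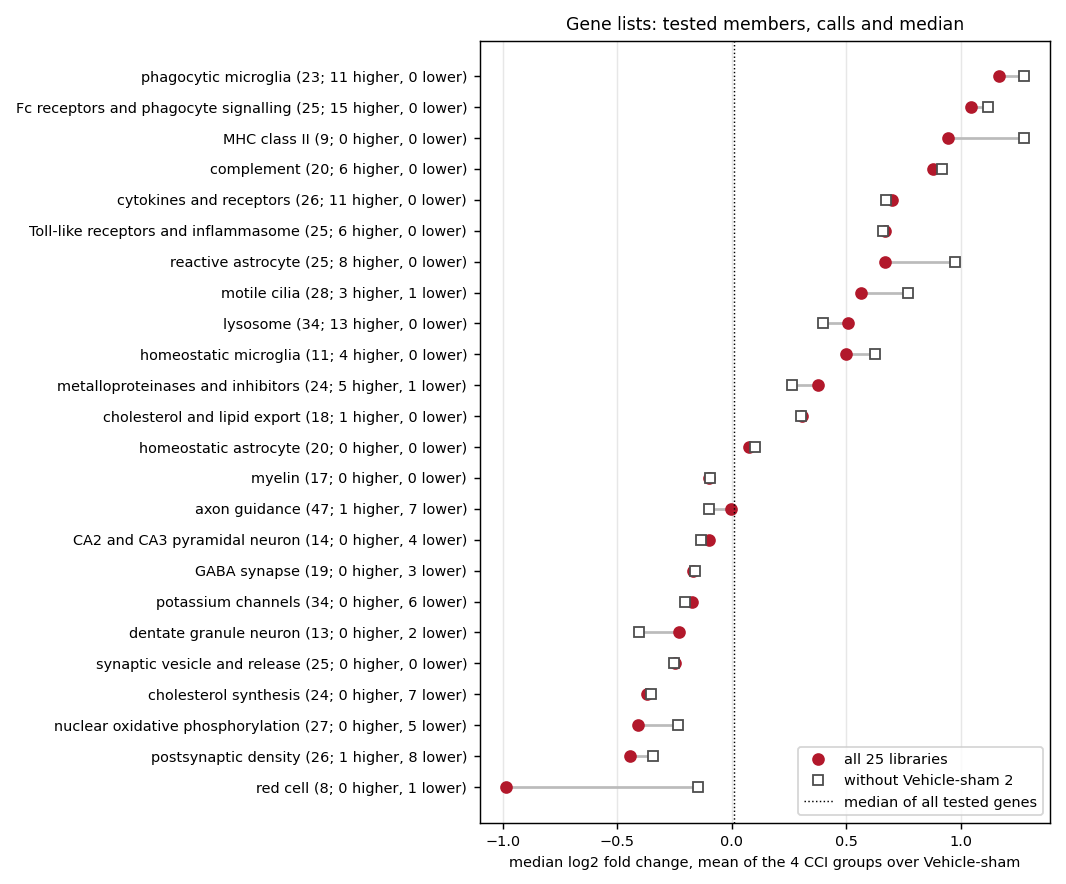
Median log2 fold change of the tested members of gene lists, the mean of the 4 CCI groups over Vehicle-sham, with all 25 libraries (filled circles) and without Vehicle-sham 2 (open squares); the dotted line is the median of all tested genes, 0.01, and the labels give tested members and calls. Phagocytic microglia (1.16 and 1.28) and phagocyte signalling (1.04 and 1.12) keep high medians in both, while red cell genes shift to -0.15 from -0.99 when the library is left out.

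Each CCI group was also set against sham. Against the same 5 sham libraries, edgeR called 0 genes (0%) in Vehicle-CCI, 0 (0%) in TD-CCI, 3 (0.0142%) in TCF-CCI and 542 (2.57%) in TNF-CCI. At an unadjusted p under 0.05 the counts were 2669, 3474, 3788 and 4215 genes. Median log2 fold changes of the 472 higher genes were 1.18, 1.10, 0.94 and 1.37 in these groups in that order, and of the 776 lower genes -0.56, -0.64, -0.69 and -0.72, values that the choice of genes on their mean partly fixes. Without TNF-CCI in the mean 2 genes were called, without TD-CCI 6, without TCF-CCI 312 and without Vehicle-CCI 1284. A direct test among the 4 CCI groups called 0 genes (0%) in edgeR, with 501 (2.38%) at an unadjusted p under 0.05, and 0 in voom, with 1122; this does not show that the groups were alike.

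List medians by group can be set side by side. Fc receptors and phagocyte signalling had medians of 1.18 in Vehicle-CCI, 1.00 in TD-CCI, 0.75 in TCF-CCI and 1.30 in TNF-CCI. Lysosome genes had 0.52, 0.55, 0.31 and 0.62 in the same order, and complement genes 0.83, 0.88, 0.49 and 1.19. TCF-CCI had the lowest value in each of these 3 lists, and the differences between groups were not tested for lists. Of single genes, Lgmn had log2 fold changes of 0.90, 0.92, 0.47 and 0.99, and Ano3 -0.89, -0.96, -1.13 and -1.30.

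Libraries within a group differed widely. Vehicle-CCI 4 was above every sham library in 132 of the 472 higher genes (28.0%) and below every sham library in 83 of the 776 lower genes (10.7%). At the other end, Vehicle-CCI 1 was above every sham library in 469 higher genes (99.4%), and TNF-CCI 5 below every sham library in 602 lower genes (77.6%). The 2 sides did not go together in every library: TCF-CCI 5 had 33.7% of higher and 61.6% of lower genes beyond the sham range, and TNF-CCI 2 had 93.2% and 30.9%. The median standard deviation of log2(CPM + 1) within groups was 0.499 in CCI groups and 0.314 in Vehicle-sham for higher genes. For lower genes it was 0.275 in CCI groups and 0.451 in Vehicle-sham. Without Vehicle-sham 2 the sham values were 0.225 for higher and 0.258 for lower genes. Over all tested genes it was 0.257 in CCI groups and 0.369 in Vehicle-sham (0.219 without Vehicle-sham 2). Each value was taken over genes with a mean of at least 1 CPM.

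**Figure D5:**
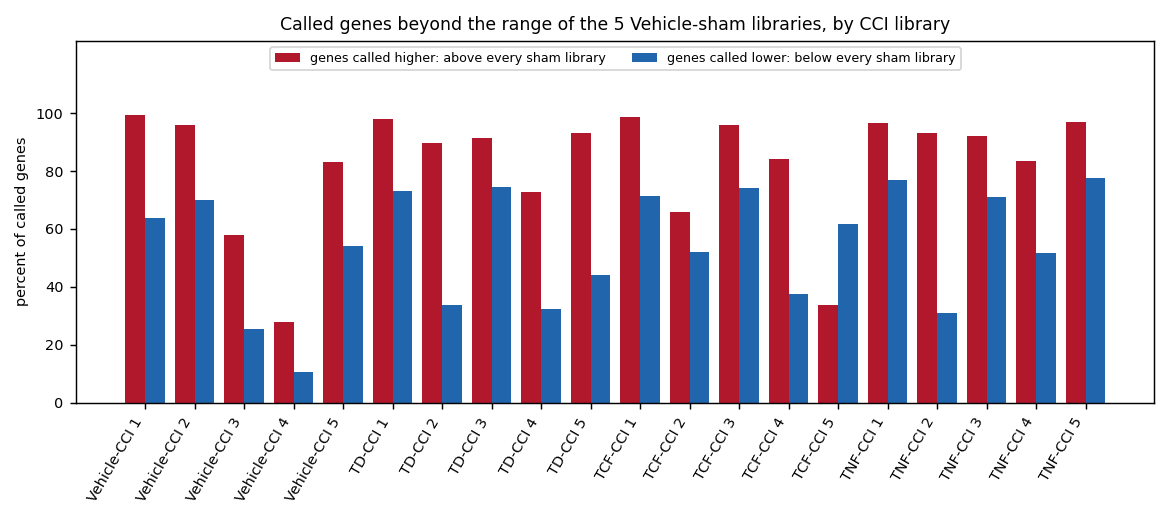
Percent of the 472 genes called higher that lay above every Vehicle-sham library (red) and of the 776 called lower that lay below every one (blue), for each of the 20 CCI libraries. Red bars run from 28.0% in Vehicle-CCI 4 to 99.4% in Vehicle-CCI 1, and blue bars from 10.7% in Vehicle-CCI 4 to 77.6% in TNF-CCI 5.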

How the data were processed

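RNA from rat hippocampus was made into poly(A) libraries, per the labels' protocols. The authors deposited a table of raw counts per gene for 25 libraries; STAR, Salmon, featureCounts and DESeq2, and the build mRatBN7.2, are named per the submitters' processing notes, without versions or roles. Of 34322 listed genes 7 with empty cells were left out and 34315 read; 0 per-sample columns were left unused. Low counts were removed with filterByExpr, libraries scaled by TMM, and 1 mean per group fitted with edgeR 4.0.16 (R 4.3.3); the contrast was the mean of the 4 CCI group means minus Vehicle-sham, tested by the quasi-likelihood F test with Benjamini-Hochberg adjustment over all tested genes. SE is the fold change divided by the square root of F. Levels are CPM on TMM-scaled totals. The steps were tested on simulated data. limma 3.58.1 (voom with quality weights) and DESeq2 1.42.0 were alternatives; both fits without Vehicle-sham 2 were chosen after the data were seen. The sources used here do not say whether counting used strand or how it treated reads shared by near-identical copies, so genes with close paralogs or antisense partners are uncertain. Of 50 pairs of libraries within groups 0 were identical.

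Genes named with statistics were taken from the 10 of smallest p and the 8 of largest fold change on each side among called genes with at least 1 CPM, and up to 4 called members of each of 60 gene lists; Samsn1, Arhgap25 and the genes of library checks lie outside this. Members, lists and rules were chosen with earlier results of these data known. Of 1248 called genes 901 matched a RefSeq promoter.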

Additional observations from a re-analysis of the deposited data

Results flagged for a closer look

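In 15 of 145 groups of 5 libraries tested, over 29 measures, 1 library lay far from the other 4 by Dixon's criterion. Chance gives about 1 in 20 for independent values of normal distribution. Here CPM was not log-transformed, most measures were genes named above, and all share the same libraries. The count of 15 therefore cannot be held against that rate. Vehicle-sham held 3 of the 15. TNF-CCI 2 had 10.9% mitochondrial rRNA, 27812 detected genes, 37.37 CPM of Lilrb4, 381.6 CPM of Cox7b and 126.7 CPM of Trnc, each above the other TNF-CCI libraries. TNF-CCI 1 had 32.3 CPM of Card14 and 79.08 CPM of Fcgr2b. TCF-CCI 1 had 14.93 CPM of Lilrb4 and 30.76 CPM of Card14, and TCF-CCI 4 a TMM factor of 0.9882. TD-CCI 1 had 136.9 CPM of Csf1r and 24.12 CPM of Unc93b1. Vehicle-sham 2 had 440.8 CPM of Neurod6 and 867.5 CPM of Trnc, and Vehicle-sham 1 had 0.3309 CPM of Lilrb4. Calls of Neurod6 and Trnc in the mean of the 4 CCI groups therefore use a sham library that stands apart; their values without it are given with the results.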

How the results depend on the processing

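The count of 1248 called genes depended on the processing. It was 1340 with DESeq2-type size factors, 2070 with no filter on low counts, 1412 with a filter at 1 CPM, 2414 with DESeq2, 1297 with voom, 1650 with CCI as 1 group and 2811 at a threshold of 0.1. Leaving out 1 library gave 14 to 2117. Without Vehicle-sham 2 and 3 it was 0 (3311 genes at an unadjusted p under 0.05). It was 6 without TD-CCI, 312 without TCF-CCI, 2 without TNF-CCI and 1284 without Vehicle-CCI in the mean, 560 with each library's mitochondrial rRNA share in the model, and 618 with voom and 704 with DESeq2 without Vehicle-sham 2. With the replicate number as a block it was 1863. Same-numbered libraries correlated at -0.32 to 0.441, with a median of 0.123, against a median of -0.0213 for differently numbered ones. Of 25 libraries 13 correlated best with their own number. The main fit had no block, and whether the numbers pair libraries was not tested. The test among CCI groups called 2 genes with no filter and 0 to 1 with 1 library left out (1 without TD-CCI 5 or TNF-CCI 3, 4 or 5). The rRNA difference was -7.23 to -1.37 points with 1 sham library left out (-3.46 without Vehicle-sham 3). Signs turned for Cox7b (0.19), Trnc (0.46) and Hbb-bs (0.42) without Vehicle-sham 2 and 3, for Trnc in voom without Vehicle-sham 2 (0.039), and for Trib3 without Vehicle-sham 5 (0.94; -2.35 to 0.94 with 1 library left out). Of 53 called genes named with values, 49 kept the call with the block, 39 in voom and 47 in DESeq2 without Vehicle-sham 2, and 6 in edgeR without it. The causes were not tested. Depth (at least 27.3 M reads) limits mainly genes under 1 CPM.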

Other observations

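The genes of smallest p in the test among the 4 CCI groups, all with an edgeR adjusted p of at least 0.216, each had 1 library far above the rest. Asb15 was at 40.8 CPM in TNF-CCI 2, Lox, an enzyme that crosslinks collagen, at 157 CPM in TNF-CCI 1, Pomc, a hormone precursor, at 78.2 CPM in TD-CCI 1, and Shox2, a transcription factor of the thalamus, at 23.5 CPM in TD-CCI 4. Markers of neighbouring tissue were high in single libraries as well. Ttr, the main product of choroid plexus, was at 3.35 to 3757 CPM in CCI libraries, highest in Vehicle-CCI 3, and 10.7 to 351 CPM in sham libraries. Slc17a6, a vesicular glutamate transporter abundant in thalamus, reached 115 CPM in TD-CCI 4, and its highest sham value was 28.3 CPM. Summed thalamus markers were at 60.8 to 289 CPM in CCI libraries and 48.9 to 128 CPM in sham libraries.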
